A study of Homo sapiens with 12 samples.

Results

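The 40 genes described here encode transcription factors that set up embryonic lineages and are known from other work as Polycomb targets in embryonic stem cells. They were taken by symbol from the table of read counts, which held a row for each of the 40 among 53717 genes. They were sorted by the lineage in which each is best known: 13 of neural tube and brain, 9 of neural crest and plate border, 5 of endoderm, 4 of heart mesoderm, 3 of kidney and gonad, 2 of axial skeleton and pharyngeal mesoderm, and 4 used in several lineages. Polycomb binding and histone marks were not measured in the data used here, so "Polycomb target" is background and not a property tested in these cells.

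The cells were of H9, an established line of human embryonic stem cells. They grew in RSeT, a medium for naive-type pluripotency. They carried 1 of 3 oligonucleotides at 25 nM: ASO-L1, an antisense oligonucleotide against the retrotransposon LINE1; sO-L1, the sense oligonucleotide of LINE1; or ASO-Ctr, an antisense oligonucleotide with no specific target. The oligonucleotides were tagged with the dye FAM. In every group the lipid transfection came with 0.7 uM Trans-ISRIB, 5 uM Emricasan and 10 uM of the ROCK inhibitor Y-27632 for 24 hours, and at 48 hours the FAM-positive cells were sorted and their polyadenylated RNA was sequenced. Each group had 4 replicates, and the labels do not say whether these were separate cultures, so p-values measure only the spread between these samples. One cell line and 1 time point were studied, and only cells that had taken up an oligonucleotide were collected.

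The 12 libraries held 22.8 M to 55.1 M counted reads (M, 1e+06), and 3 reads, the most that a count of 0 allows, correspond to 0.0534 to 0.128 CPM, reads per 1e+06 counted reads after scaling. These limits cover counting error only. General pluripotency markers summed to 7370 to 7650 CPM with ASO-L1, 7471 to 7958 CPM with sO-L1 and 7502 to 7779 CPM with ASO-Ctr, over 8 genes. POU5F1, NANOG and SOX2, the core factors, were not called with ASO-L1 against ASO-Ctr (log2 0.09, 0.05 and -0.07), while SOX2 fell against sO-L1 (log2 -0.11, adjusted p = 0.0256). With ASO-L1 against ASO-Ctr DPPA4 rose and LIN28A, SALL4 and L1TD1 fell (log2 0.19, -0.22, -0.13 and -0.10). Of 9 naive markers 7 were tested, of which 5 rose, among them KLF4, KLF5 and DPPA3 (log2 1.23, 1.08 and 0.42), and DPPA5 fell (log2 -1.04). KLF17 reached at most 0.491 CPM and ARGFX at most 0.103 CPM. Of 5 tested trophectoderm and amnion markers KRT18 rose (log2 0.33), with CDX2 at 0, and of 5 tested fibroblast markers THY1 rose and COL1A2 fell (log2 0.42 and -0.73), with LUM at 0. Summed levels were 164 to 176, 138 to 156 and 135 to 146 CPM for trophectoderm and amnion, and 334 to 395, 337 to 410 and 344 to 413 CPM for fibroblasts (ASO-L1, sO-L1 and ASO-Ctr). In bulk RNA, fewer cells of a type and less RNA per cell cannot be told apart, and a low level may come from a few cells or from many.

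Polycomb repressive complex 2 (PRC2), with EZH2 or EZH1 as its enzyme, EED and SUZ12, methylates histone H3 at lysine 27. Polycomb repressive complex 1 (PRC1) binds that mark through its CBX subunits and ubiquitinates histone H2A. In embryonic stem cells both complexes sit on CpG islands of genes for lineage factors, many of which also carry an activating mark, and the genes stay silent or nearly so until a lineage is chosen. Mammalian Polycomb sites have no single recognition motif, and a high density of CpG dinucleotides is the best-known sequence feature of these promoters.

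To show that feature, the 250 bases before the annotated start are printed for 4 genes that rose or fell with ASO-L1 and have 1 or 2 starts in RefSeq. They are given on the gene's own strand, 5′ to 3′, from RefSeq's GRCh38.p14, with each CG in capitals. MSX2 lies at chr5:174724332-174724581 on the plus strand, FOXD3 at chr1:63322317-63322566 on the plus strand, and SIX2 at chr2:45009453-45009702 on the minus strand. PAX9 has 2 starts, at chr14:36657318-36657567 and chr14:36661610-36661859, both on the plus strand.
MSX2: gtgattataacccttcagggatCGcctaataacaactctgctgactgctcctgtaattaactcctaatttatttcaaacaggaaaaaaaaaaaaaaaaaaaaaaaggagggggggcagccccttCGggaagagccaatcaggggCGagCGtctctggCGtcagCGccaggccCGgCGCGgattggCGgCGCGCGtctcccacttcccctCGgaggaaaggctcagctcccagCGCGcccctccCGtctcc
FOXD3: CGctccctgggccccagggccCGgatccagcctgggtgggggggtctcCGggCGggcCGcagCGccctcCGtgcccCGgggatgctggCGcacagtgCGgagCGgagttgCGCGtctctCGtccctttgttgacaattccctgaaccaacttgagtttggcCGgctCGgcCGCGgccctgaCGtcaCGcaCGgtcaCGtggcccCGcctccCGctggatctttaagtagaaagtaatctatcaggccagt
SIX2: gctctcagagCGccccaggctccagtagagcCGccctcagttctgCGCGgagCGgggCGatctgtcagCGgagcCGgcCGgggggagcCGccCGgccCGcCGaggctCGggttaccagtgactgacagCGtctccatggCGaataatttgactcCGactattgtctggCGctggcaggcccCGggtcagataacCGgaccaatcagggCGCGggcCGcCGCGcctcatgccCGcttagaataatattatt
PAX9 first start: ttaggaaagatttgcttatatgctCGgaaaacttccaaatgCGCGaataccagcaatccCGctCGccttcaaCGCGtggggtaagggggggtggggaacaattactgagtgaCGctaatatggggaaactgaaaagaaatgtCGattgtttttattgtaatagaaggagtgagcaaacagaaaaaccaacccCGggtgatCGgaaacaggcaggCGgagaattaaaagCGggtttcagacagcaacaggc
PAX9 second start: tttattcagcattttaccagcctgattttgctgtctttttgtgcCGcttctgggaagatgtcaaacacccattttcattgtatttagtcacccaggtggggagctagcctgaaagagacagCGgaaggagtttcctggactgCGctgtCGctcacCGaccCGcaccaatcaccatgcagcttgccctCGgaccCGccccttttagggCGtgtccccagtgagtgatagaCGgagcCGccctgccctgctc

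The stretch before MSX2 held 17 CpG, more than 61% of RefSeq promoters. The stretches of FOXD3 and SIX2 held 24 and 26, more than 76.3% and 80.4% of promoters. Those of PAX9, which fell, held 13 and 11, more than 53.4% and 49.7%. RefSeq entries were matched for 25 of the 40 genes, with the median at 19.5 CpG per gene (mean over a gene's starts) against 11 over 27303 genes. The ratio of observed to expected CpG was above 0.6 in 22 of the 25 genes (88%) and in 46.2% of genes in the table. The motif searched was CG, which reads the same on both strands, and 93.9% of promoters hold at least 1. Entries were not matched for LHX1, LHX5, EN1, OLIG2, IRX3, IRX5, ALX1, SOX9, SOX10, DLX5, SOX17, GATA4, FOXA2, NKX2-5 and TBX3.

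**Figure D1:**
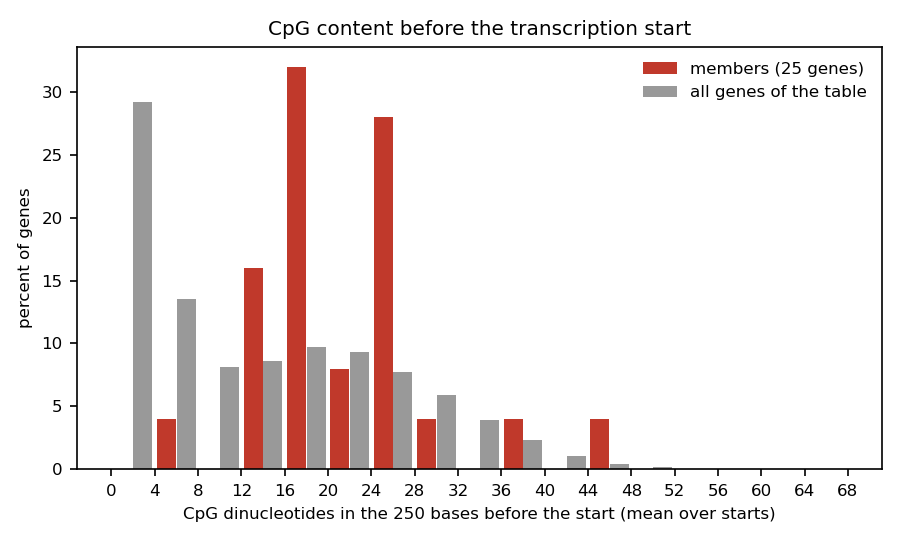
Percent of genes (y axis) by the number of CpG dinucleotides in the 250 bases before the start (x axis, in steps of 4) for the 25 matched genes, left bar of each pair, and the 27303 genes of the RefSeq table, right bar. The matched genes centre on 19.5 CpG and all genes on 11, and 29.2% of all genes but none of the matched ones have fewer than 4.

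Most of these genes had few or no reads in any group. DLX1 and EN2, forebrain and midbrain homeobox genes, and TBX5, a heart and forelimb factor, had no read in the 12 libraries. A read in every library was found for 15 genes. The filter on low counts asked for 0.289 CPM, which is 10 reads at the median depth, in at least 4 libraries, and kept 14 of the 40 genes among 17264. These 14 could be tested for a change with edgeR's quasi-likelihood test, with Benjamini-Hochberg adjustment over the 17264 genes and a call at an adjusted p under 0.05. For 10 of the 14, libraries of the other 2 groups alone reached it. The other 4 (OLIG2, IRX3, MSX2 and SIX2) needed ASO-L1 libraries, OLIG2 those alone. PAX9, among the 10, passed on 3 sO-L1 libraries and 1 ASO-Ctr library, with 0 ASO-L1 libraries at that level. The numbers that rose and fell among the 14 are therefore a description and not a share of the 40.

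With ASO-L1 against ASO-Ctr, 7 of the 14 tested genes rose (PAX6, OLIG2, MSX2, FOXD3, ALX1, FOXA2 and SIX2), 2 fell (SOX10 and PAX9) and 5 were not called. Among the 17264 genes 44.3% were called, 21.2% higher and 23.1% lower, so a call by itself was common in this comparison. Counts of calls for the other lists of genes are to be read beside the same shares. Against sO-L1, where 44% of genes were called (21.1% higher, 22.9% lower), the same 7 genes rose, PAX9 fell and 6 were not called. With sO-L1 against ASO-Ctr none of the 14 was called by edgeR, DESeq2 or limma, 3 had an unadjusted p under 0.05 (IRX3, MSX2 and ALX1), and 0.29% of all genes were called (0.0695% higher, 0.22% lower). No gene of the 14 separated sO-L1 from ASO-Ctr, as 1.24% (above) and 1.99% (below) of tested genes did, while 3 (PAX6, OLIG2 and ALX1) had the ASO-L1 libraries above those with sO-L1, as did 16% of tested genes (16.2% below). Each pair of comparisons shares a group of libraries, so the 3 sets of values are given side by side and not as separate evidence. The median log2 fold change over all tested genes was close to 0 in each comparison (-0.0028, -0.0032 and 8e-04).

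A filter that does not look at the groups, a mean count of at least 10, left 12 of the 40 genes. Of these 7 rose and 1 fell with ASO-L1 against ASO-Ctr, where 45.6% of genes were called and 22% rose, and 7 rose and none fell against sO-L1, where 45.2% were called and 21.6% rose. For sO-L1 against ASO-Ctr none of the 12 was called (edgeR), beside 0.293% of genes (0.0717% higher). The median log2 fold change of the 12 was 0.71 for ASO-L1 against ASO-Ctr, 0.84 when set against sO-L1, and 0.05 between sO-L1 and ASO-Ctr (sO-L1 over ASO-Ctr). The ASO-L1 libraries count in the mean that this filter uses. They gave 112 of 167 reads for MSX2, 83 of 137 for OLIG2 and 70 of 130 for SIX2. PAX9, low with ASO-L1, was left out on 89 reads, so these counts and medians are also descriptions. Without any filter 37 genes could be fitted, and 9 rose and 2 fell against ASO-Ctr, where 20.7% of 35768 genes were called and 10% rose. Against sO-L1 9 rose and 1 fell, beside 20.7% called and 9.95% higher, and for sO-L1 over ASO-Ctr none was called, beside 0.394% (0.129% higher). Of these 37 genes with a read, 28 had a higher and 9 a lower mean CPM with ASO-L1 than with ASO-Ctr. Leaving out any 1 replicate number or library kept the count of higher means between 25 and 32. Of all 25391 genes with 1 to 2612 reads, the range of the 37, 48.9% were higher. These were not matched on reads within that range, and genes without a read in either group count as not higher, which lowers the share.

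**Figure D2:**
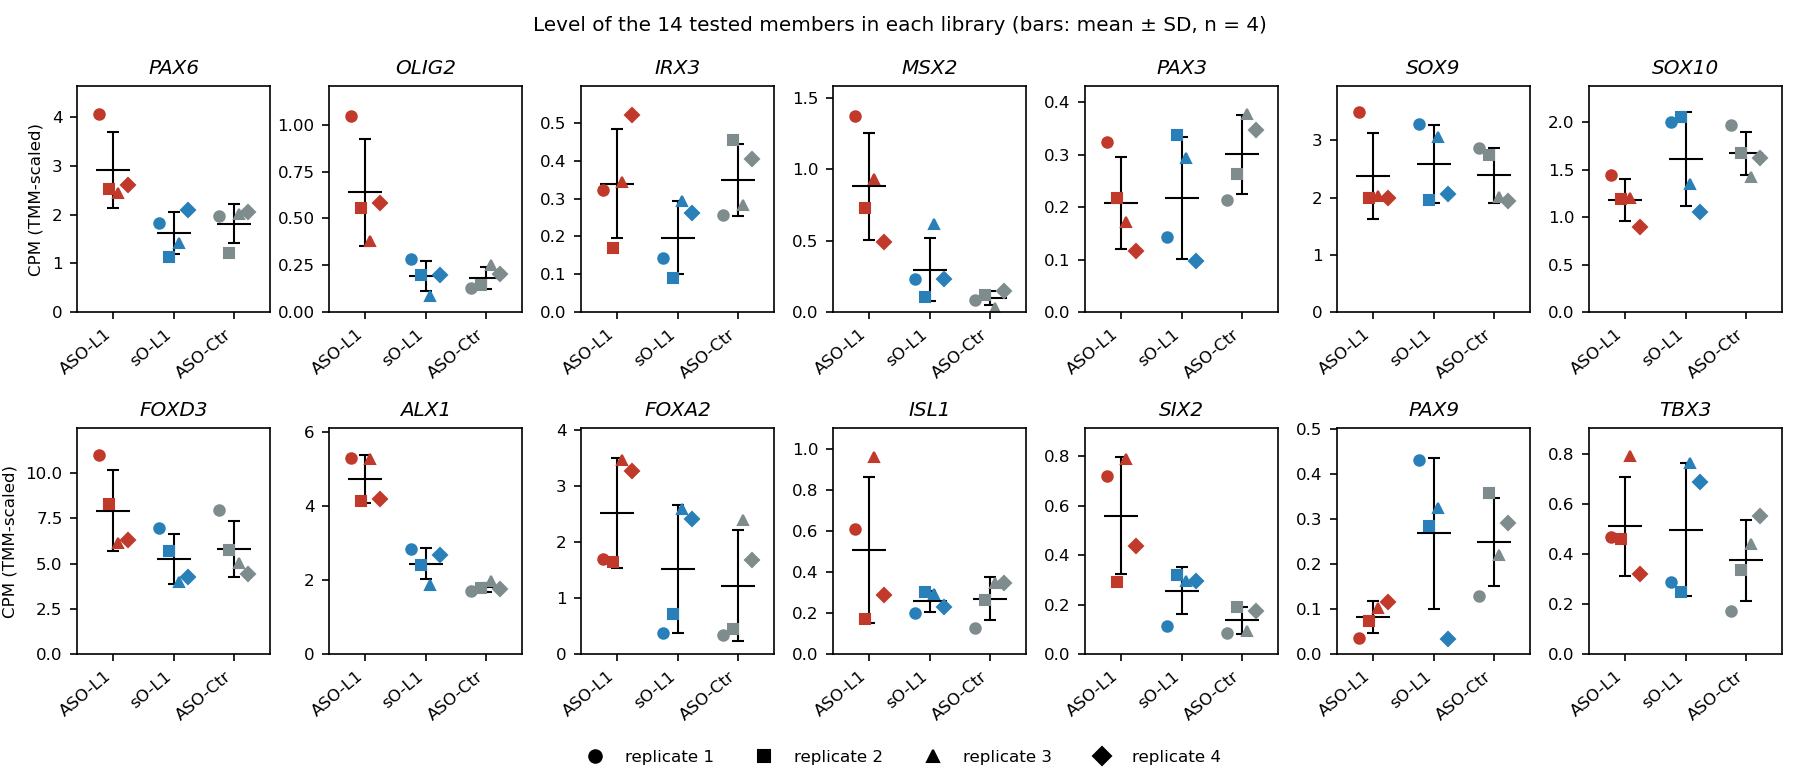
CPM with TMM scaling (y axis, from 0) of the 14 tested genes in each library, with ASO-L1, sO-L1 and ASO-Ctr from left to right, symbols for the replicate number and bars for mean ± SD of 4 libraries. PAX6, OLIG2, MSX2, ALX1 and SIX2 have each ASO-L1 library above each ASO-Ctr library, and PAX9 each below. For PAX9 this holds only after depth scaling. Among all tested genes 16.3% lie wholly above and 17% wholly below.

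**Figure D3:**
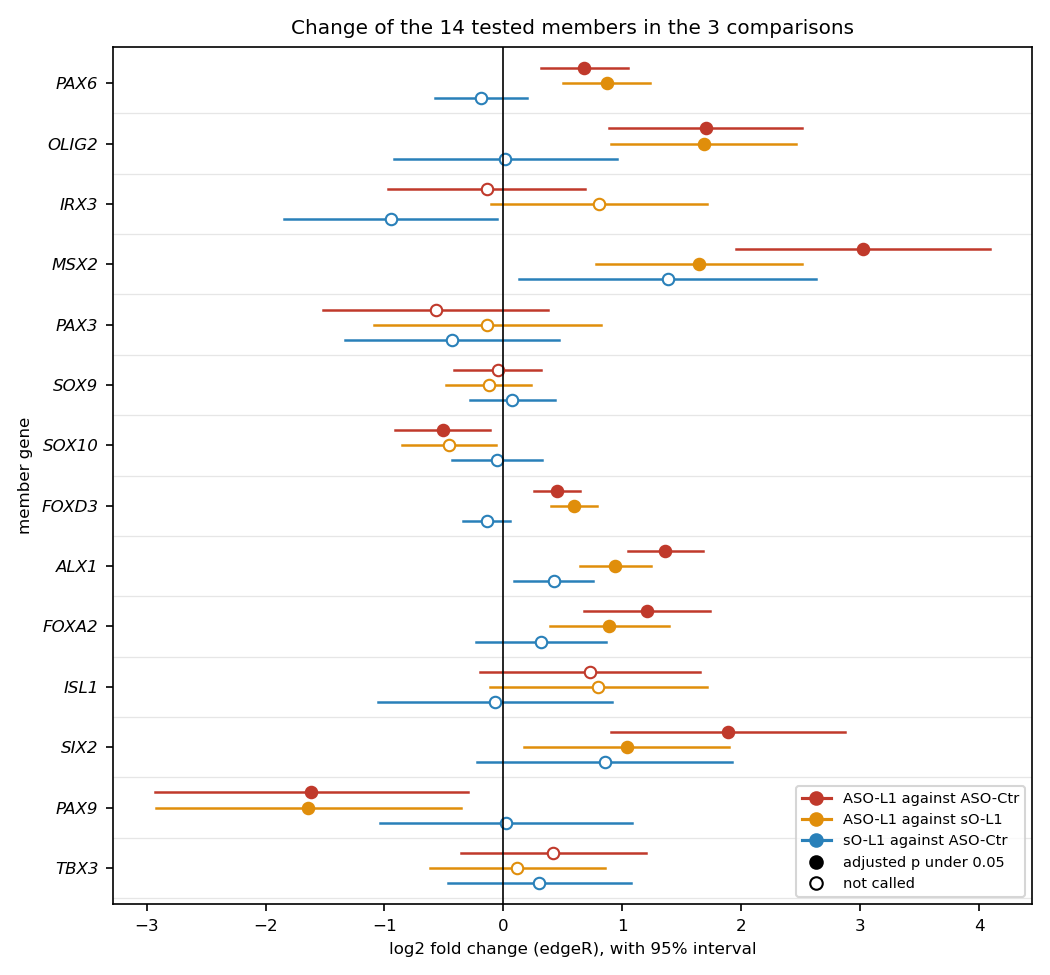
Log2 fold change (x axis) of the 14 tested genes with its 95% interval, from top to bottom within a gene for the comparison of ASO-L1 with ASO-Ctr, that of ASO-L1 with sO-L1 and that of sO-L1 with ASO-Ctr. Filled points have an adjusted p under 0.05, which holds for 9, 8 and none of the genes.

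Among the 13 neural tube and brain genes, PAX6 and OLIG2 rose with ASO-L1 against both other groups, IRX3 was not called, and 10 were too low to test. PAX6, a paired-box factor of eye, forebrain and spinal cord, had 4.07, 2.52, 2.44 and 2.61 CPM with ASO-L1, 1.83, 1.12, 1.41 and 2.1 CPM in the sO-L1 libraries, and 1.97, 1.22, 2.01 and 2.06 CPM with ASO-Ctr (replicates 1 to 4). Each ASO-L1 library lay above each library of the other groups, by the least margin between 2.44 and 2.1 CPM. The fold was 1.60 against ASO-Ctr (95% interval 1.24 to 2.07; log2 0.68, SE 0.17; adjusted p = 0.00429) and 1.82 against sO-L1 (1.42 to 2.35; adjusted p = 0.000638). For sO-L1 against ASO-Ctr it was 0.879 (0.672 to 1.15; adjusted p = 0.94).

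OLIG2, a basic helix-loop-helix factor of motor neuron and oligodendrocyte progenitors, had 1.05, 0.558, 0.378 and 0.58 CPM with ASO-L1, 0.286, 0.196, 0.0882 and 0.196 CPM in the sO-L1 libraries, and 0.128, 0.143, 0.252 and 0.203 CPM with ASO-Ctr. Its lowest ASO-L1 library, on 11 reads, was above the highest library of either other group. It rose 3.25-fold against ASO-Ctr (1.85 to 5.7; SE 0.38 on the log2 scale; adjusted p = 0.00176) and 3.21-fold against sO-L1 (1.88 to 5.5; adjusted p = 0.00136).

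IRX3, an Iroquois factor of the caudal neural tube, averaged 0.34 ± 0.144 CPM with ASO-L1, 0.197 ± 0.0969 with sO-L1 and 0.35 ± 0.0948 with ASO-Ctr (SD, n = 4). The 3 groups overlapped, and the log2 fold change was -0.14 ± 0.39 (SE) against ASO-Ctr (adjusted p = 0.797) and 0.81 ± 0.43 against sO-L1 (adjusted p = 0.14). Its neighbour IRX5 was under the filter, with 24 reads in the ASO-L1 libraries, 8 with sO-L1 and 6 with ASO-Ctr. At 0.121 to 0.324 CPM each ASO-L1 library of IRX5 exceeded each of the other 8 libraries, of which the highest had 0.107 CPM. That was sO-L1 replicate 2, on 6 reads, while the ASO-L1 libraries had 9, 5, 4 and 6. Their separation from sO-L1 therefore rests on depth scaling. The noncoding RNA CRNDE, which is transcribed away from the start of IRX5, rose 1.57-fold with ASO-L1 against ASO-Ctr (1.22 to 2.01; adjusted p = 0.00524), and averaged 3.71 ± 0.872 CPM with ASO-L1, 2.37 ± 0.505 CPM with sO-L1 and 2.36 ± 0.269 CPM with ASO-Ctr (SD, n = 4). It was the 1 gene tested of 6 antisense or divergent partners found in the table. Whether reads were counted by strand is not stated in the sources used here, so reads of IRX5 and CRNDE that overlap cannot be told apart.

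DLX2, a homeobox factor of forebrain interneurons, had 6, 3, 7 and 5 reads with ASO-L1, 2, 6, 3 and 0 with sO-L1, and 1, 0, 0 and 0 with ASO-Ctr. Its ASO-L1 libraries lay above the ASO-Ctr libraries and overlapped those with sO-L1. LHX2, a factor of eye field and cortex, had 14 reads with ASO-L1, of which 9 were in replicate 2, 1 read with sO-L1 and 3 with ASO-Ctr. SOX1, an early neuroectoderm factor, had 10, 5 and 7 reads with ASO-L1, sO-L1 and ASO-Ctr, and LHX5, a forebrain factor, had 11, 9 and 5. EMX2, of dorsal forebrain, had 4 reads with ASO-L1, 1 with sO-L1 and 1 with ASO-Ctr. EN1, of the midbrain-hindbrain border, had 2 with ASO-L1, none with sO-L1 and 1 with ASO-Ctr. NKX2-2, of the ventral neural tube, had 3 reads, each with ASO-Ctr. The groups overlapped in each of these genes apart from DLX2.

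Of 10 genes that mark neural cells 9 were tested, and with ASO-L1 against ASO-Ctr NES, an intermediate filament of neural progenitors, rose (log2 0.40, SE 0.04) and 4 fell, among them TUBB3 and NCAM1 (log2 -0.26 and -0.47). DCX, a microtubule protein of young neurons, fell by 0.78 on the log2 scale (SE 0.08; adjusted p = 1.05e-06). The summed level was 852 to 958 CPM with ASO-L1, 858 to 984 with sO-L1 and 803 to 885 with ASO-Ctr, and HES5 had at most 0.131 CPM. The part of cell composition in the change of PAX6 and OLIG2 was not tested.

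The 9 neural crest and plate border genes held the most tested members, 6, of which MSX2, FOXD3 and ALX1 rose, SOX10 fell and PAX3 and SOX9 were not called against ASO-Ctr. MSX2, a homeobox factor that acts downstream of BMP signals at the plate border and in craniofacial crest, had 1.37, 0.727, 0.928 and 0.493 CPM with ASO-L1, 0.229, 0.107, 0.618 and 0.229 CPM in the sO-L1 libraries, and 0.0856, 0.119, 0.0315 and 0.145 CPM with ASO-Ctr. In reads this was 112 with ASO-L1, 42 with sO-L1 and 13 with ASO-Ctr. ASO-L1 and ASO-Ctr did not overlap, while replicate 3 with sO-L1 lay among the ASO-L1 libraries.

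MSX2 had the largest fitted rise of the 14 genes, 8.13-fold against ASO-Ctr (3.87 to 17.1; log2 3.02, SE 0.51; adjusted p = 0.000135). Against sO-L1 it rose 3.12-fold (1.71 to 5.7; log2 1.64; adjusted p = 0.00377), with log2 2.28 when replicate 3 with sO-L1 was left out. The fold for sO-L1 against ASO-Ctr was 2.6 (1.1 to 6.18), with an unadjusted p of 0.0321 and an adjusted p of 0.64 (edgeR). Its relative MSX1 stayed under the filter with 14, 10 and 11 reads with ASO-L1, sO-L1 and ASO-Ctr.

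ALX1, a homeobox factor of frontonasal crest mesenchyme, had 5.3, 4.15, 5.29 and 4.2 CPM with ASO-L1, 2.84, 2.4, 1.88 and 2.68 CPM in the sO-L1 libraries, and 1.71, 1.79, 1.98 and 1.77 CPM with ASO-Ctr. ASO-L1 lay apart from both other groups, which overlapped each other. It rose 2.57-fold against ASO-Ctr (2.06 to 3.2; log2 1.36, SE 0.15; adjusted p = 1.91e-06), the smallest p of the 14 genes. Against sO-L1 the rise was 1.92-fold (1.56 to 2.36; adjusted p = 4.7e-05). For sO-L1 against ASO-Ctr the fold was 1.34 (1.06 to 1.69), with an unadjusted p of 0.0162 and an adjusted p of 0.516 (edgeR).

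FOXD3, a forkhead factor needed both in pluripotent cells and in premigratory crest, had 11, 8.29, 6.15 and 6.29 CPM with ASO-L1, 6.99, 5.71, 4 and 4.26 CPM in the sO-L1 libraries, and 7.96, 5.75, 5.01 and 4.43 CPM with ASO-Ctr. The groups overlapped, and within each replicate number the ASO-L1 library was the highest of the 3. In each group replicates 1 and 2 were above replicates 3 and 4, which held for 4.69% of the tested genes. With the replicate number in the model it rose 1.37-fold against ASO-Ctr (1.2 to 1.56; adjusted p = 0.00076) and 1.51-fold against sO-L1 (1.32 to 1.72; adjusted p = 6.31e-05). Without the replicate block the first of these calls was lost (adjusted p = 0.11).

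SOX10, a factor of migrating crest and its glial and pigment descendants, had 1.44, 1.19, 1.2 and 0.898 CPM with ASO-L1, 2, 2.05, 1.35 and 1.05 CPM in the sO-L1 libraries, and 1.97, 1.67, 1.42 and 1.62 CPM with ASO-Ctr. It fell to 0.701 of its ASO-Ctr level (0.53 to 0.927; log2 -0.51, SE 0.19; adjusted p = 0.0381), with overlap of the groups. Set against sO-L1, its log2 fold change was -0.46 (SE 0.19; adjusted p = 0.058). That ASO-Ctr call did not hold in 10 of the 16 leave-one-out fits, each without a replicate number or a library (highest adjusted p 0.172), without the replicate block (0.109), with DESeq2 (0.109) and with the 8 libraries alone (0.0531).

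SOX9, a factor of crest and cartilage, averaged 2.38 ± 0.746 CPM with ASO-L1, 2.59 ± 0.681 with sO-L1 and 2.39 ± 0.482 with ASO-Ctr (SD, n = 4). Its fold was 0.967 against ASO-Ctr, with a 95% interval of 0.752 to 1.24. PAX3, a paired-box factor of dorsal neural tube and crest, averaged 0.208 ± 0.0884 CPM with ASO-L1, 0.218 ± 0.116 with sO-L1 and 0.301 ± 0.0756 with ASO-Ctr, and its fold of 0.674 against ASO-Ctr had an interval of 0.35 to 1.3. The related PAX7 had 1, 3 and 5 reads with ASO-L1, sO-L1 and ASO-Ctr. DLX5, of the plate border and branchial arches, had 8 reads with ASO-L1, 8 with sO-L1 and 1 with ASO-Ctr.

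Among genes that mark crest cells, with ASO-L1 against ASO-Ctr the neurotrophin receptor gene NGFR rose (log2 0.98) and the factor gene ETS1 fell (log2 -0.13). Of the early crest factors, both under the filter, TFAP2B had no read with ASO-L1 and at most 0.0982 CPM elsewhere. SNAI2 had 1.15, 0.485, 0.241 and 0.116 CPM with ASO-L1 and averaged 0.0837 ± 0.0631 with sO-L1 and 0.131 ± 0.0715 CPM with ASO-Ctr, with overlap. The part of crest-like cells in the changes of MSX2, FOXD3, ALX1 and SOX10 was not tested.

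One of the 5 endoderm genes, FOXA2, could be tested, and it rose with ASO-L1. FOXA2, a forkhead factor of definitive endoderm, node and floor plate, had 1.69, 1.65, 3.47 and 3.27 CPM with ASO-L1, 0.372, 0.712, 2.59 and 2.42 CPM in the sO-L1 libraries, and 0.342, 0.454, 2.39 and 1.68 CPM with ASO-Ctr. Replicates 3 and 4 were above replicates 1 and 2 in each group, as in 6.15% of the tested genes, and the groups overlapped. Within each replicate number the ASO-L1 library was the highest.

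The rise of FOXA2 was 2.31-fold against ASO-Ctr (1.6 to 3.33; log2 1.21, SE 0.25; adjusted p = 0.000875) and 1.85-fold against sO-L1 (1.31 to 2.62; adjusted p = 0.0058). It differed between replicate numbers, at 2.13, 1.74, 0.53 and 0.94 on the log2 CPM scale against ASO-Ctr. Both calls were lost without the replicate block (adjusted p = 0.167 and 0.3), and the authors' deposited table, for ASO-L1 against sO-L1, gave it an adjusted p of 0.0972.

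**Figure D4:**
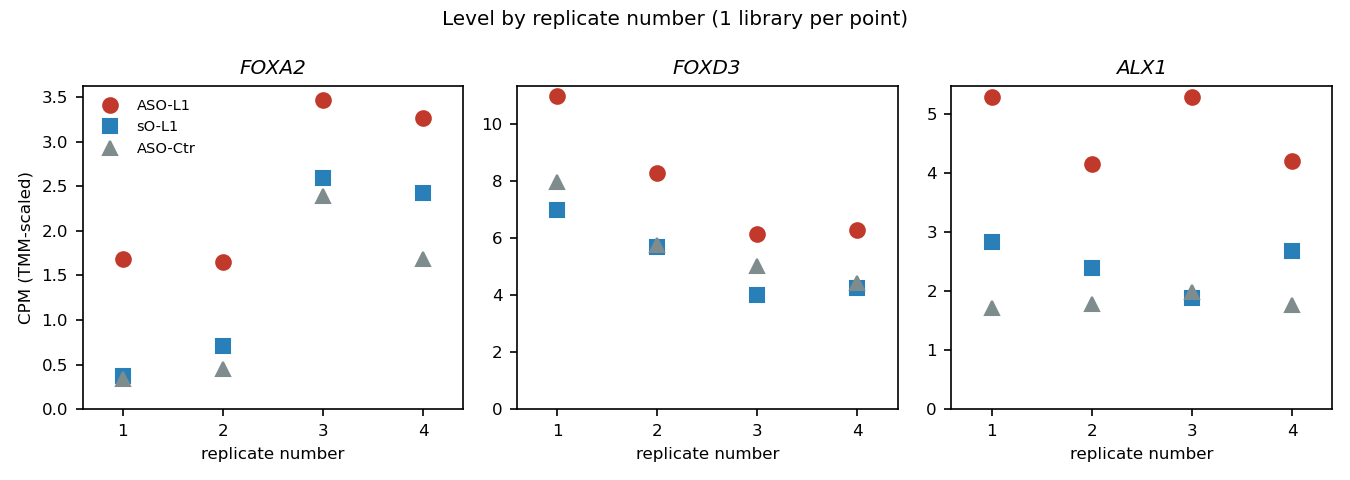
CPM (y axis, from 0) of FOXA2, FOXD3 and ALX1 by replicate number (x axis), 1 point for each library, with circles for ASO-L1, squares for sO-L1 and triangles for ASO-Ctr. FOXA2 is at 1.65 to 3.47 CPM with ASO-L1 and 0.342 to 2.39 CPM with ASO-Ctr and splits by replicate number in each group, FOXD3 splits the other way, and ALX1 shows no such split.

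The other endoderm factors were near the floor in every group. GATA4 had 15 reads with ASO-L1, 25 with sO-L1 and 18 with ASO-Ctr, and GATA6 had 5, 2 and 0. Both are zinc-finger factors of endoderm and heart. FOXA1, which overlaps FOXA2 in function, had 5, 4 and 2 reads with ASO-L1, sO-L1 and ASO-Ctr, and SOX17, a defining factor of definitive endoderm, had 1 read in all, with ASO-L1. No group difference of these 4 genes was detectable at this depth.

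CER1, a secreted inhibitor of Nodal, BMP and Wnt made by anterior endoderm, also rose. It had 137, 170, 296 and 248 CPM with ASO-L1, 78.5, 101, 152 and 156 CPM in the sO-L1 libraries, and 62.3, 89.8, 130 and 131 CPM with ASO-Ctr. The rise was 2.06-fold against ASO-Ctr (1.91 to 2.22; adjusted p = 1.03e-09), with replicates 3 and 4 above 1 and 2 in each group. The sum over the 8 endoderm cell markers was 164 to 329 CPM with ASO-L1, 120 to 194 with sO-L1 and 98.5 to 170 with ASO-Ctr. CER1 made up most of this sum, with a mean of 213 of 244 CPM with ASO-L1, 122 of 158 with sO-L1 and 103 of 139 with ASO-Ctr. Of these 8 markers 4 were tested, CER1 rose and FOXA3 fell (log2 -0.28, SE 0.07), and APOA2, TTR, SHH and HNF4A, with at most 0.206 CPM in a library, were under the filter. The part of endoderm-like cells in the level of FOXA2 was not tested.

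Of the 9 mesoderm genes with 1 best-known lineage, 3 could be tested. SIX2 rose, PAX9 fell and ISL1 was not called. SIX2, which keeps nephron progenitors undifferentiated, had 0.721, 0.291, 0.79 and 0.435 CPM with ASO-L1, 0.115, 0.32, 0.294 and 0.295 CPM in the sO-L1 libraries, and 0.0856, 0.191, 0.0945 and 0.174 CPM with ASO-Ctr. ASO-L1 and ASO-Ctr did not overlap, and the ASO-L1 library of replicate 2 lay within the sO-L1 range. It rose 3.7-fold against ASO-Ctr (1.87 to 7.32; log2 1.89, SE 0.47; adjusted p = 0.00341) and 2.05-fold against sO-L1 (1.13 to 3.72; adjusted p = 0.0483). The second call did not hold in 12 of the 16 leave-one-out fits (highest adjusted p 0.248), with DESeq2 (0.105) and with the 8 libraries alone (0.0785).

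The other kidney and gonad genes, LHX1 and WT1, were under the filter and had the most reads of the 26 genes there. LHX1, a LIM-homeobox factor of the nephric duct and also of the gastrula organizer, had 7, 16, 12 and 11 reads with ASO-L1, 1, 3, 7 and 1 with sO-L1, and 3, 1, 0 and 0 with ASO-Ctr. In CPM this was 0.343 ± 0.0722 with ASO-L1, 0.0802 ± 0.0845 with sO-L1 and 0.0381 ± 0.0613 with ASO-Ctr (SD, n = 4), and ASO-L1 overlapped neither other group. The lowest ASO-L1 library and the highest sO-L1 library each had 7 reads, so they differ only by depth scaling. In the fit without a filter LHX1 rose by log2 3.34 (SE 0.77) against ASO-Ctr (adjusted p = 0.000149) and by log2 2.19 (SE 0.65) against sO-L1 (adjusted p = 0.00482).

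WT1, a zinc-finger factor of nephron and gonad, had 0.18, 0.339, 0.309 and 0.406 CPM with ASO-L1, 0.0859, 0.0178, 0.147 and 0.164 CPM in the sO-L1 libraries, and 0.214, 0.0239, 0.22 and 0.058 CPM with ASO-Ctr. The ASO-L1 libraries lay above those with sO-L1 and overlapped those with ASO-Ctr. The lowest ASO-L1 library (0.18 CPM) and the highest sO-L1 library (0.164 CPM) each had 5 reads, so they differ only by depth scaling. In the fit without a filter WT1 rose against sO-L1 (adjusted p = 0.0177; log2 1.77, SE 0.60), with log2 1.47 and an adjusted p of 0.0653 for ASO-L1 over ASO-Ctr. The antisense transcript WT1-AS, which overlaps the gene's start, was at 0.162 ± 0.0936 CPM with ASO-L1, 0.0164 ± 0.0327 with sO-L1 and 0.0447 ± 0.056 with ASO-Ctr, and reads shared by both cannot be told apart.

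PAX9, a paired-box factor of sclerotome and pharyngeal pouches, had 0.036, 0.0727, 0.103 and 0.116 CPM with ASO-L1, 0.43, 0.285, 0.324 and 0.0327 CPM in the sO-L1 libraries, and 0.128, 0.358, 0.22 and 0.29 CPM with ASO-Ctr. In reads this was 11 with ASO-L1, 43 with sO-L1 and 35 with ASO-Ctr. ASO-L1 lay below ASO-Ctr without overlap, while sO-L1 had the lowest library of the 12. The highest ASO-L1 library had 4 reads and the lowest ASO-Ctr library 3, so the separation rests on depth scaling. The lowest sO-L1 library and the lowest ASO-L1 library each had 1 read. PAX9 fell to 0.327 of the ASO-Ctr level (0.131 to 0.813, log2 -1.61, SE 0.62, adjusted p = 0.0444) and to 0.321 of the sO-L1 level (0.132 to 0.783, adjusted p = 0.0377). These calls were lost in 8 and 7 of the 13 leave-one-out fits that kept the gene (highest adjusted p 0.151 and 0.156), and with DESeq2 (0.109 and 0.0927) and limma (0.0987 and 0.198).

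FOXC1, a forkhead factor of paraxial mesoderm and eye, had 17, 5, 3 and 5 reads with ASO-L1, 1, 2, 1 and 3 with sO-L1, and 5, 0, 2 and 0 with ASO-Ctr. ASO-L1 lay above sO-L1 and overlapped ASO-Ctr, and replicate 1 held 17 of its 30 ASO-L1 reads. The lowest ASO-L1 library (0.103 CPM) and the highest sO-L1 library (0.0982 CPM) each had 3 reads, so they differ only by depth scaling. ISL1, a LIM-homeobox factor of the second heart field and of motor neurons, averaged 0.509 ± 0.356 CPM with ASO-L1, 0.257 ± 0.0497 with sO-L1 and 0.271 ± 0.103 with ASO-Ctr (SD, n = 4). Its ASO-L1 libraries ran from 0.17 to 0.962 CPM, and the fold of 1.66 against ASO-Ctr was not called (0.871 to 3.15; adjusted p = 0.192). It was called when the ASO-L1 library of replicate 2 was left out (adjusted p = 0.0467 against ASO-Ctr and 0.0328 against sO-L1). NKX2-5, a cardiac homeobox factor, had 8 reads with ASO-L1, of which 7 were in replicate 1, none with sO-L1 and 2 with ASO-Ctr. HAND2, of heart and limb, had 3 reads with ASO-L1, 1 with sO-L1 and 1 with ASO-Ctr.

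Of 9 mesoderm and heart cell markers 4 were tested, and with ASO-L1 against ASO-Ctr the receptor gene KDR rose (log2 0.38, SE 0.13) and the receptor gene PDGFRA fell (log2 -0.90, SE 0.08). Their sum was 30.5 to 56.2 CPM with ASO-L1, 35.7 to 53.3 with sO-L1 and 36.7 to 48.5 with ASO-Ctr. MESP1, T, MYH6, TNNT2 and HAND1, which define mesoderm and heart cells, were under the filter with at most 0.315 CPM in a library. The part of such cells in the changes of SIX2 and PAX9 was not tested.

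Of the 4 genes used in several lineages, TBX3, a T-box repressor of limb, heart and naive pluripotency, was tested and not called. It averaged 0.51 ± 0.199 CPM with ASO-L1, 0.497 ± 0.267 with sO-L1 and 0.374 ± 0.162 with ASO-Ctr, with a fold of 1.34 against ASO-Ctr (0.78 to 2.29). NR2F2, an orphan nuclear receptor of mesoderm and veins, had 3 reads in each ASO-L1 library, 4 in all with sO-L1 and 8 with ASO-Ctr, of which 7 were in replicate 3. Its ASO-L1 libraries lay above those with sO-L1, by the least margin between 0.0727 CPM on 3 reads and 0.0655 CPM on 2 reads. They overlapped those with ASO-Ctr. NR2F1, its close relative in brain and eye, had 2, 0 and 4 reads with ASO-L1, sO-L1 and ASO-Ctr, and MEIS2, a cofactor of HOX proteins, had 13, 12 and 10.

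The 26 genes under the filter were described together by their summed level, since single values rested on a few reads. The sum was 3.06, 2.01, 2.06 and 1.83 CPM with ASO-L1, 0.516, 0.872, 1.29 and 0.851 CPM in the sO-L1 libraries, and 1.16, 0.859, 0.913 and 0.667 CPM with ASO-Ctr. The means were 2.24 ± 0.558, 0.883 ± 0.319 and 0.899 ± 0.201 CPM (SD, n = 4), on 291 reads with ASO-L1, 137 with sO-L1 and 115 with ASO-Ctr. The ASO-L1 libraries lay above the other 8, and sO-L1 and ASO-Ctr overlapped.

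LHX1, WT1, FOXC1, IRX5 and DLX2 gave 46, 42, 30, 24 and 21 of the 291 ASO-L1 reads in this sum. Of the 23 genes under the filter with a read, 19 had a higher mean with ASO-L1 than with ASO-Ctr and 4 a lower one. For sO-L1 against ASO-Ctr, 10 of the 23 were higher and 12 lower. Among all 17607 genes under the filter with 1 to 71 reads, the range of the 23, 48.1% were higher with ASO-L1 than with ASO-Ctr. These too were not matched on reads within the range, and genes without a read in either group count as not higher, which lowers the share.

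Gene by gene, an exact two-sided permutation test of 4 against 4 libraries left out the replicate number, which the fits kept as a block. It cannot give a p under 0.0286, and these p-values are not adjusted. Against ASO-Ctr that smallest p was reached by DLX2, IRX5 and LHX1, each with the ASO-L1 libraries above. Such separation was seen in 1.45% of the 18504 genes with a read under the filter, and the reverse, ASO-L1 below, in 0.757%. The 18504 include genes with as few as 1 read, which cannot separate 4 libraries. Shares over them are therefore not matched to these genes by reads, and are lowered by such genes. Against sO-L1 it was reached by IRX5, LHX1, WT1, FOXC1 and NR2F2, also with ASO-L1 above, and such separation was seen in 1.41% of these genes (0.973% below). For IRX5, LHX1, WT1 and FOXC1 this rests on depth scaling, since their reads tie or overlap between the 2 groups. No gene of the 26 had the ASO-L1 libraries below either other group, and none separated sO-L1 from ASO-Ctr, as 0.497% (above) and 0.454% (below) of these genes did. In the fit without a filter 0.481% and 0.503% of the 18504 genes were called higher with ASO-L1 against ASO-Ctr and sO-L1 (0.168% and 0.281% lower), among them LHX1 in both, DLX2 against ASO-Ctr (adjusted p = 0.0133) and WT1 against sO-L1. With 1 read of DLX2 in the ASO-Ctr libraries, no fold is given for it.

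**Figure D5:**
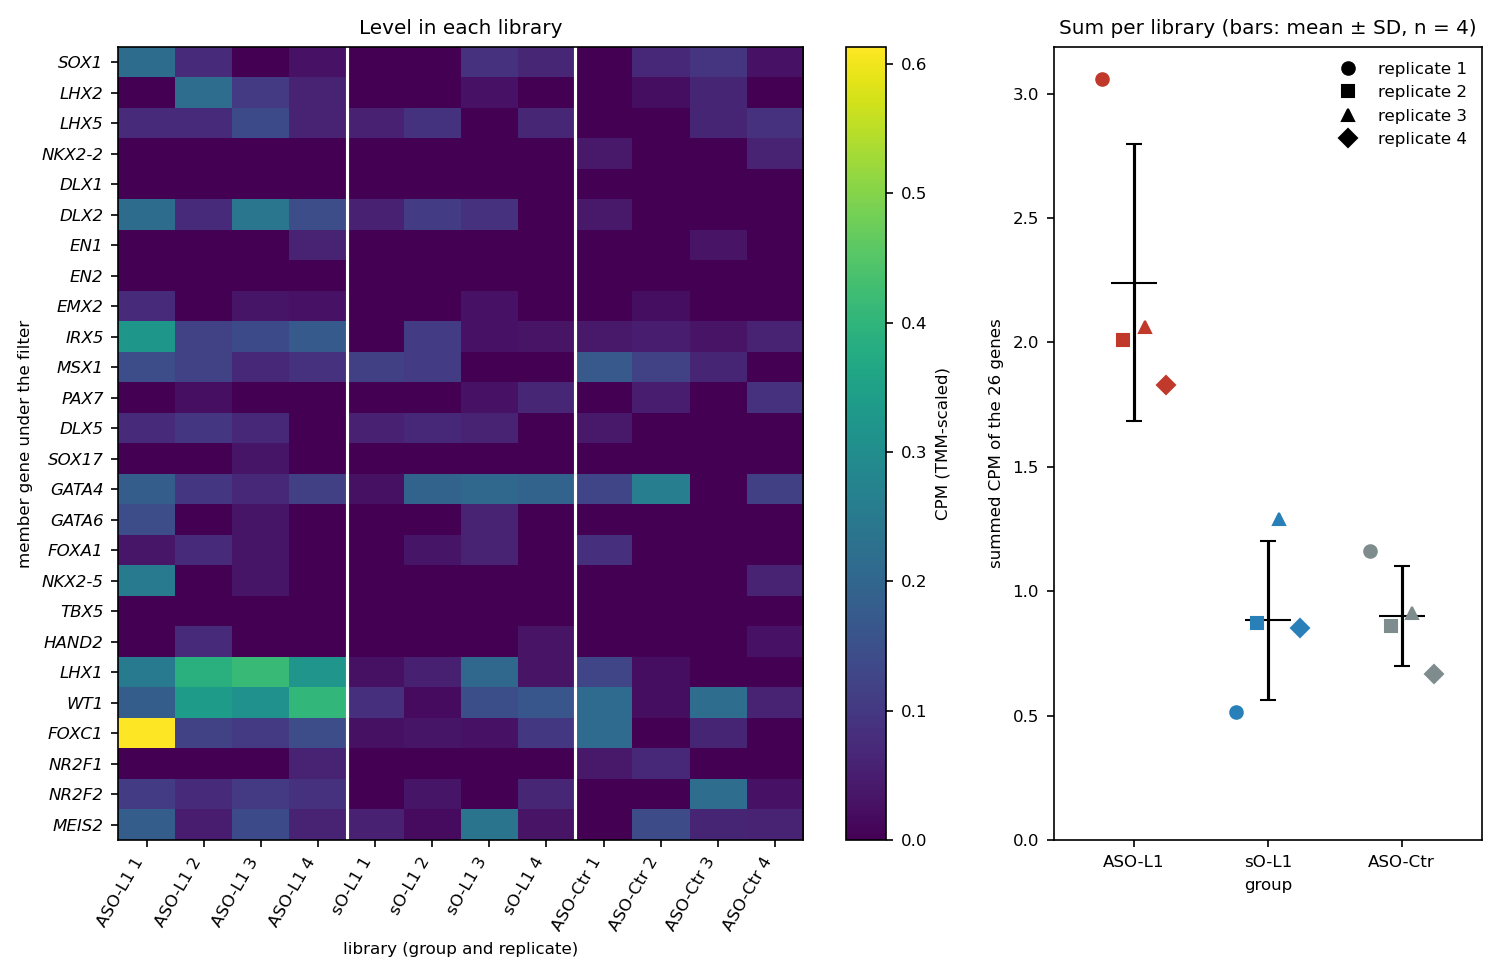
Left, CPM in each library (colour scale; columns are ASO-L1, sO-L1 and ASO-Ctr replicates 1 to 4, divided by white lines) of the 26 genes under the filter (rows, by lineage). Right, their summed CPM per library with mean ± SD of 4, which is 1.83 to 3.06 with ASO-L1 and at most 1.29 in the other groups.

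The authors' deposited table, which compares ASO-L1 with sO-L1, holds 25 of the 40 genes. By the authors' deposited table, of the 25 genes 9 were higher and none lower at an adjusted p under 0.05, where 32.8% of its 20856 genes were called and 16.1% were higher. The 9 are ALX1, FOXD3, OLIG2, MSX2, PAX6, LHX1 (log2 2.32, adjusted p = 0.00311), WT1 (1.90, 0.0252), IRX5 (1.96, 0.0264) and FOXC1 (2.07, 0.0324) in the authors' deposited table. That table did not call PAX9 (log2 -1.36, adjusted p = 0.11), SIX2 (0.91, 0.12) or SOX10 (-0.47, 0.0583).

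The genes of the Polycomb complexes themselves were expressed in every group. EZH2 had 74.3, 88.2, 86.7 and 94.9 CPM with ASO-L1, 103, 108, 114 and 113 CPM in the sO-L1 libraries, and 105, 112, 117 and 111 CPM with ASO-Ctr. It fell to 0.773 of the ASO-Ctr level (log2 -0.37, SE 0.05; adjusted p = 1.15e-05) and 0.784 of the sO-L1 level (0.73 to 0.841; adjusted p = 1.97e-05), without overlap of ASO-L1 with the other groups. EED rose 1.16-fold against ASO-Ctr (1.06 to 1.26; adjusted p = 0.00745), and SUZ12 was not called, at 1.04-fold (0.97 to 1.11). Of the 13 PRC2 genes tested 2 rose (EED and the accessory PHF1) and 2 fell (EZH2 and EZH1), with a median log2 fold change of 0.02. Over all tested genes 21.2% rose and 23.1% fell against ASO-Ctr.

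Of the 22 PRC1 genes 8 rose and 5 fell against ASO-Ctr, where 44.3% of all tested genes were called (21.2% higher, 23.1% lower). The Polycomb group RING finger genes PCGF1 (2.09-fold, 1.77 to 2.47) and PCGF5 (1.94-fold), and BMI1, another of that family (2.57-fold, 2.01 to 3.29), rose, while CBX2, which reads the methyl mark, fell to 0.673 of its level (0.597 to 0.759). Of 13 genes listed for factors that oppose Polycomb 9 were matched, and the histone H3 methyltransferase subunit gene WDR5 rose (log2 0.12) and the demethylase gene KDM6A, the deubiquitinase cofactor gene ASXL1 and the remodeller gene SMARCA4 fell (log2 -0.27, -0.26 and -0.13). How these transcript levels relate to Polycomb activity at the 40 genes was not tested.

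A wider list of 127 other developmental transcription factors, HOX genes among them, was handled in the same way. No read was found for 21 of them, and 27 passed the filter, of which 15 rose and 1 fell with ASO-L1 against ASO-Ctr. Over all tested genes 21.2% rose and 23.1% fell in that comparison. When set against sO-L1 13 rose and 2 fell, beside 21.1% higher and 22.9% lower over all tested genes. With sO-L1 against ASO-Ctr 1, SOX21, rose, beside 0.0695% of all tested genes. The median log2 fold change of the 27 was 0.43 with ASO-Ctr as the base, 0.31 with sO-L1 as the base, and 0.07 in sO-L1 over ASO-Ctr. As with the 40 genes, the filter favours those that are high in 1 group. The lowest adjusted p-values were those of TWIST1, a factor of mesenchyme (12.7-fold, 8.17 to 19.6), SOX18, of blood vessel endothelium (10.2-fold, 6.19 to 16.7), MIXL1, of the primitive streak (1.53-fold), and LHX6, of forebrain interneurons (1.82-fold).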

How the data were processed

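RNA of the 12 libraries was analysed from the deposited table of read counts per gene, from which the authors had removed duplicate reads, per the labels. Trim Galore 0.4.0, TopHat2 2.0.13, Subread 1.5.0 (featureCounts) and hg19 stand in the submitters' processing notes, and no annotation release is named there. The authors' deposited log2 values carry a batch correction and a cutoff of 0.2, per the labels, and served for limma 3.58.1 alone. Limma fitted them by group without a replicate block, so its p-values do not allow for the degrees of freedom the correction used. Log2 fold changes and p-values of the authors' deposited comparison are quoted as theirs, and its t statistic and log odds, deposited scores, were not used.

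Counts were fitted with edgeR 4.0.16 in R 4.3.3: filterByExpr (minimum count 10), TMM, group and replicate number on the 12 libraries, quasi-likelihood F-tests, Benjamini-Hochberg adjustment over 17264 genes, biological coefficient of variation 0.0634. Same-numbered libraries of different groups deviated together (r of 0.216 to 0.725 in 12 pairs, over 10549 genes averaging 200 counts or more), so the number was kept as a block. Replicates differed by more than counting error (chi-squared of 3 to 29 per gene) and 0 pairs were identical. Intervals are 95%, on 16.8 degrees of freedom. Levels are TMM-scaled CPM without length scaling, so they are compared between groups and not between genes.

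All 40 genes are named. Of each other list the 4 called genes with the smallest adjusted p were named, with EZH2, EED, SUZ12, POU5F1, NANOG and SOX2. PHF1 and EZH1 come under that rule, while SOX21, KLF17, ARGFX and the markers under the filter were named after their values were seen. Some genes of the other lists are not reported here. The members and lists were chosen with earlier results of these data known. The tests were checked on simulated counts. Promoters are RefSeq's. Alternatives were no replicate block, DESeq2 size factors or upper quartile scaling, DESeq2 1.42.0, other filters, the 8 libraries of a comparison alone, limma on the deposited log2 values, and leaving out replicate numbers or libraries.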

Additional observations from a re-analysis of the deposited data

Results flagged for a closer look

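In 42 sets of 4 libraries (14 tested genes in 3 groups) 4 had 1 library farther from the rest than Dixon's 95% critical value allows, and chance flags about 1 in 20 sets. PAX6 had 4.07 CPM in the ASO-L1 library of replicate 1, against 2.44 to 2.61 CPM in the other 3. PAX6 also had 1.22 CPM in the ASO-Ctr library of replicate 2, against 1.97 to 2.06 CPM in the other 3. SOX9 had 3.5 CPM in the ASO-L1 library of replicate 1, against 1.99 to 2.03 CPM in the others. SIX2 had 0.115 CPM in the sO-L1 library of replicate 1, against 0.294 to 0.32 CPM in the others.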

How the results depend on the processing

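The calls of ALX1, MSX2, OLIG2 and PAX6 with ASO-L1 against ASO-Ctr and against sO-L1 held under every alternative run. The count of the 40 genes called stayed between 6 and 12 against ASO-Ctr, 6 and 10 against sO-L1, and at 0 for sO-L1 against ASO-Ctr. Without the replicate block 6 of the 14 were called against ASO-Ctr (adjusted p 0.11 for FOXD3, 0.167 for FOXA2 and 0.109 for SOX10) and 7 against sO-L1, where the calls over the 17264 genes were 5893 and 5782 in place of 7652 and 7602. Besides the losses given for SOX10, PAX9, SIX2, FOXD3 and FOXA2, SOX10 was called against sO-L1 by limma (adjusted p = 0.0261) and in 2 of 16 leave-one-out fits (without ASO-L1 replicate 3 and without sO-L1 replicate 4, lowest adjusted p 0.0341), and ISL1 against sO-L1 in 2 of 16 (without replicate 2 and without ASO-L1 replicate 2, lowest adjusted p 0.0328). Over all genes, sO-L1 against ASO-Ctr gave 50 calls, and 17 without the replicate block, 89 with DESeq2, 141 without a filter, 640 with the 8 libraries alone, 137 with limma and 10 to 410 when a replicate number or library was left out; the cause was not tested. The other comparisons gave 5797 to 7849 calls (ASO-L1 against ASO-Ctr) and 5747 to 7810 (against sO-L1) when one was left out, 6758 and 6525 with the 8 libraries alone, and 8860 and 8800 with limma. Limma's p-values do not allow for the batch correction already made in its input, which bears on its counts and its SOX10 call. Values that changed sign were uncalled ones near 0. For sO-L1 against ASO-Ctr the log2 fold change became -0.0163 for OLIG2 with DESeq2, and -0.0081 and -0.33 for PAX9 with the 8 libraries alone and limma. On leaving out a replicate number or library it ran from -0.36 to 0.34 for IRX3 and -0.16 to 0.15 for SOX9 (ASO-L1 against ASO-Ctr). It ran from -0.13 to 0.49 for TBX3, -0.54 to 0.24 for PAX3 and -0.26 to 0.0455 for SOX9 (ASO-L1 against sO-L1). It ran from -0.31 to 0.44 for OLIG2, -0.43 to 0.50 for PAX9, -0.10 to 0.30 for SOX9, -0.21 to 0.11 for SOX10 and -0.46 to 0.20 for ISL1 (sO-L1 against ASO-Ctr). The counts of higher means without 1 replicate number or library were added after the data were seen. Depth limits the 26 genes under the filter, where a few reads decide a value.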
